A study of Mus musculus with 12 samples.

Results

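The 34 genes described here carry glucose through the liver cell. They cover glucose entry and its control, glycolysis, the pyruvate dehydrogenase complex, fructose phosphorylation, gluconeogenesis, glycogen storage and the top of the insulin signalling chain. They were listed by name from these pathways, and all 34 were among the 17509 genes tested out of 54232 in the count table. The data are read counts from whole livers of male C57Bl/6J mice, 6 wildtype (WT) and 6 hepatocyte-specific *Marchf6* knockout (LKO) animals, with 1 library per mouse. All mice were 10 weeks old, ate chow and had been fasted for 4 h. LKO mice carried 2 floxed *Marchf6* alleles and Cre driven by the albumin promoter, which acts in hepatocytes, and their WT littermates carried the floxed alleles without Cre. *Marchf6* encodes a ubiquitin ligase of the endoplasmic reticulum that marks enzymes of cholesterol synthesis and other proteins for degradation. The comparison asks how liver glucose genes differ when hepatocytes lack it.

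The liver takes up glucose after a meal, burns it through glycolysis, stores it as glycogen and turns the surplus into fat. Between meals it does the reverse, releasing glucose from glycogen and making it anew from lactate, glycerol and amino acids. Insulin favours the storing direction, and glucagon, acting through cyclic AMP, favours the releasing direction. Enzymes that work against each other sit at a few control steps, among them phosphofructokinase and fructose bisphosphatase, pyruvate kinase and phosphoenolpyruvate carboxykinase, and glycogen synthase and glycogen phosphorylase.

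Total counts ranged from 14860414 to 22111926 reads per liver. The whole-gene count of *Marchf6* (chr15:31455891-31531053, minus strand, GRCm38) did not separate the genotypes, with 226 to 247 normalized CPM (counts scaled to a library of equal size) in WT and 204 to 249 in LKO livers. The floxed allele loses a single exon and the counts cover all of them, so genotypes were taken from the labels. The libraries were numbered with all WT livers before the LKO livers, so genotype and library order cannot be told apart. Hepatocyte markers were abundant in every liver, and 11 of 12 were lower in LKO livers, with a median log2 fold change of −0.10 and a summed level of 112226 to 129116 CPM in WT and 100953 to 113402 CPM in LKO livers. All 12 Kupffer cell markers were higher, with a median of 0.38 and sums of 155 to 208 CPM in WT and 187 to 321 CPM in LKO livers. At an unadjusted p under 0.05, 11 of them were higher, where 6.33% of all genes tested were. At the same threshold, 4 of the hepatocyte markers were lower, where 5.36% of all genes tested were. Stellate cell markers were higher in 9 of 9 (median 0.24), and their sums ran from 217 to 328 CPM in WT and from 259 to 378 CPM in LKO livers. Endothelial markers were higher in 8 of 10 (median 0.07) and summed to 288 to 386 CPM in WT and 310 to 375 CPM in LKO livers, and no marker of these lists was at 0. At an unadjusted p under 0.05, 2 stellate and 2 endothelial markers were higher. In whole tissue, fewer cells of a type and less RNA per cell cannot be told apart.

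The 200 bases that end 50 bases before the RefSeq start of 4 members are shown because these genes carry the results described below. The windows are from GRCm38.p6, are written 5′ to 3′ on the strand of the gene, and lie at chr2:173152823-173153022 (*Pck1*, plus strand), chr13:62888333-62888532 (*Fbp1*, minus), chr19:36736655-36736854 (*Ppp1r3c*, minus) and chr1:82291490-82291689 (*Irs1*, minus). Capitals mark the matches to the motifs searched.
Pck1: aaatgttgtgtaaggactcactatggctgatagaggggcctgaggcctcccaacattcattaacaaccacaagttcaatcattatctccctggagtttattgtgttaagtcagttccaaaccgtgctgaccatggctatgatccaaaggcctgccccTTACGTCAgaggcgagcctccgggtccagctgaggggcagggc
Fbp1: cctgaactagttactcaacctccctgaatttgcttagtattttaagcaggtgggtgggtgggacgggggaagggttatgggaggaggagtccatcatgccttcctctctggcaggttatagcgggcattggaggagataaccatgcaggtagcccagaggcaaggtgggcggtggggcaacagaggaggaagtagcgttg
Ppp1r3c: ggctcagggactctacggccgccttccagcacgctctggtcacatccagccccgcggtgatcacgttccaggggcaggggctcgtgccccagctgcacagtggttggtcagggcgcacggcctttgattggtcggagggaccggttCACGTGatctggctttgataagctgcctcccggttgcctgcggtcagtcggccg
Irs1: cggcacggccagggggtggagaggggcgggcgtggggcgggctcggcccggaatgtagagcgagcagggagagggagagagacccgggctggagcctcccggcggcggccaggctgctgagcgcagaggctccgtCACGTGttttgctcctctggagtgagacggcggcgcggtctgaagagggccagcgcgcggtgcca
In the 250 bases before each start, RefSeq windows were found for 31 of the 34 members and not for *Gys2*, *Insr* and *Ppp1r3b*. On either strand, the cyclic AMP response element in the form known from the *Pck1* promoter (TTACGTCA) stood in 0.447% of all 32851 windows and, among members, in that of *Pck1*. The canonical element (TGACGTCA) stood in 1.55% of all windows and in that of *Ldha*. The E-box CACGTG, a motif that carbohydrate- and clock-responsive factors among others can bind, stood in 6.02% of all windows. It stood in 7 of the 45 member windows, those of *Irs1*, *Irs2*, *Khk*, *Ldha*, *Pcx*, *Pfkfb3* and *Ppp1r3c*. The FoxO motif GTAAACA stood in 3.17% of all windows and in none of the 45 member windows. These matches describe letters only.

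Levels of different genes were compared as normalized CPM per kb of exon. The exon length merges all annotated exons of a gene, so levels, shares and ratios between genes depend on it. *Pck1*, the cytosolic phosphoenolpyruvate carboxykinase that commits carbon to gluconeogenesis, stood highest, at 1377 CPM per kb in WT and 1300 CPM per kb in LKO livers, and its lowest liver lay above the highest liver of any other member. *Fbp1*, fructose bisphosphatase, followed at 504 and 398 CPM per kb, and then *G6pc*, the catalytic subunit of glucose 6-phosphatase, at 279 and 210 CPM per kb. *Khk*, *Ldha*, *Ugp2* and *Pcx* came next with ranges that overlapped each other and *G6pc*, between 124 and 190 CPM per kb in group means. The glycolytic phosphofructokinase *Pfkl* stood at 4.72 CPM per kb in WT and 4.69 CPM per kb in LKO livers. *Pck2*, the mitochondrial carboxykinase, was lowest at 0.385 and 0.572 CPM per kb.

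**Figure D1:**
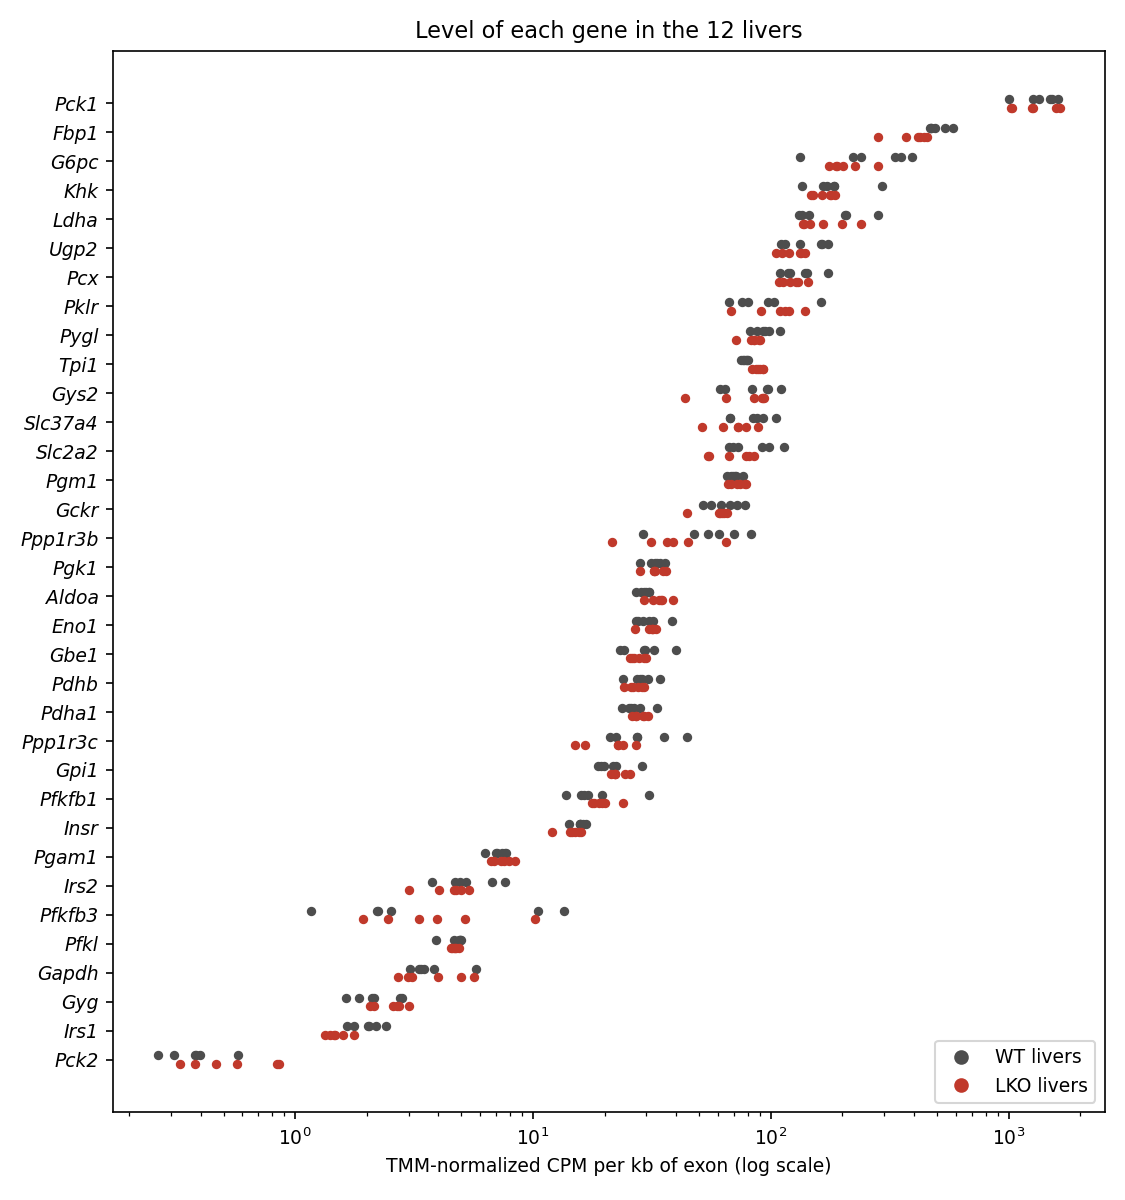
Normalized CPM per kb of exon (log axis) of the 34 genes, with 1 point for each of the 6 WT (grey) and 6 LKO (red) livers, ordered by the mean of the group means. *Pck1* stands alone at the top, at 1377 and 1300 CPM per kb in group means, *Pck2* and *Irs1* lie at the bottom, and the *Pfkfb3* points are the most widely scattered.

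Reads of *Gapdh*, *Pgk1*, *Pgam1* and *Eno1* may be shared with copies of these genes. Of all stretches of 50 bases in *Gapdh* transcripts, 25.1% also occur in other annotated genes, 223 genes in all, and the values were 53.9% for *Pgk1*, 36.2% for *Pgam1* and 26.0% for *Eno1*. *Gapdh* had 191 to 544 reads per liver, and the levels of these genes are uncertain. Smaller shares were found for *Gpi1* (15.8%), *Pdha1* (12.9%), *Pgm1* (12.2%) and *Pdhb* (11.4%). The share was 9.26% for *Ldha*, 6.43% for *Aldoa* and 4.18% for *Tpi1*. *Irs1* shares 30.5% with the antisense gene *Gm9747*, which had 0 reads in every liver, and *Pklr* shares 20.6% with *Hcn3*, which lies on the opposite strand with a median of 522 reads. The strand setting of the counting is not given in the sources used here. The 0 reads therefore do not show that *Gm9747* is silent, and the effect of these overlaps on *Irs1* and *Pklr* counts is not known.

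By edgeR's quasi-likelihood test, 0 of 34 members had an adjusted p under 0.05, where 0.428% of all genes tested had one in either direction. At an unadjusted p under 0.05, 3 members were higher in LKO livers (*Aldoa*, *Tpi1* and *Pck2*), where 6.33% of all genes tested were, and 3 were lower (*Fbp1*, *Ppp1r3c* and *Irs1*), where 5.36% were. DESeq2 called 2 members, *Tpi1* (adjusted p = 0.000863) and *Irs1* (adjusted p = 0.00638), where it called 2.00% of all genes tested, and limma voom, the test the study used, called 0, where it called 0.485%. The 6 livers of each genotype did not overlap for *Tpi1*, higher in LKO livers as were 0.748% of all genes tested, and for *Fbp1*, lower as were 0.554%. The fitted log2 fold change was below 0 for 21 of 34 members, against 50.0% of all genes tested, and its median was −0.11 over the members and 0.00016 over all genes. Over the alternatives the member median ran from −0.13 to −0.0029, and it was −0.018 without WT replicate 3. The member median lies close to that of the hepatocyte markers (−0.10). Scaling each library to these markers, an alternative added after the values were seen, moved the median of all genes to 0.10, brought the member median to −0.0029 and left 18 of 34 members lower. With this scaling 1 member, *Tpi1* (adjusted p = 0.0157), was called, where 1.12% of all genes tested were. The part of the marker shift in the members' values was not tested.

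**Figure D2:**
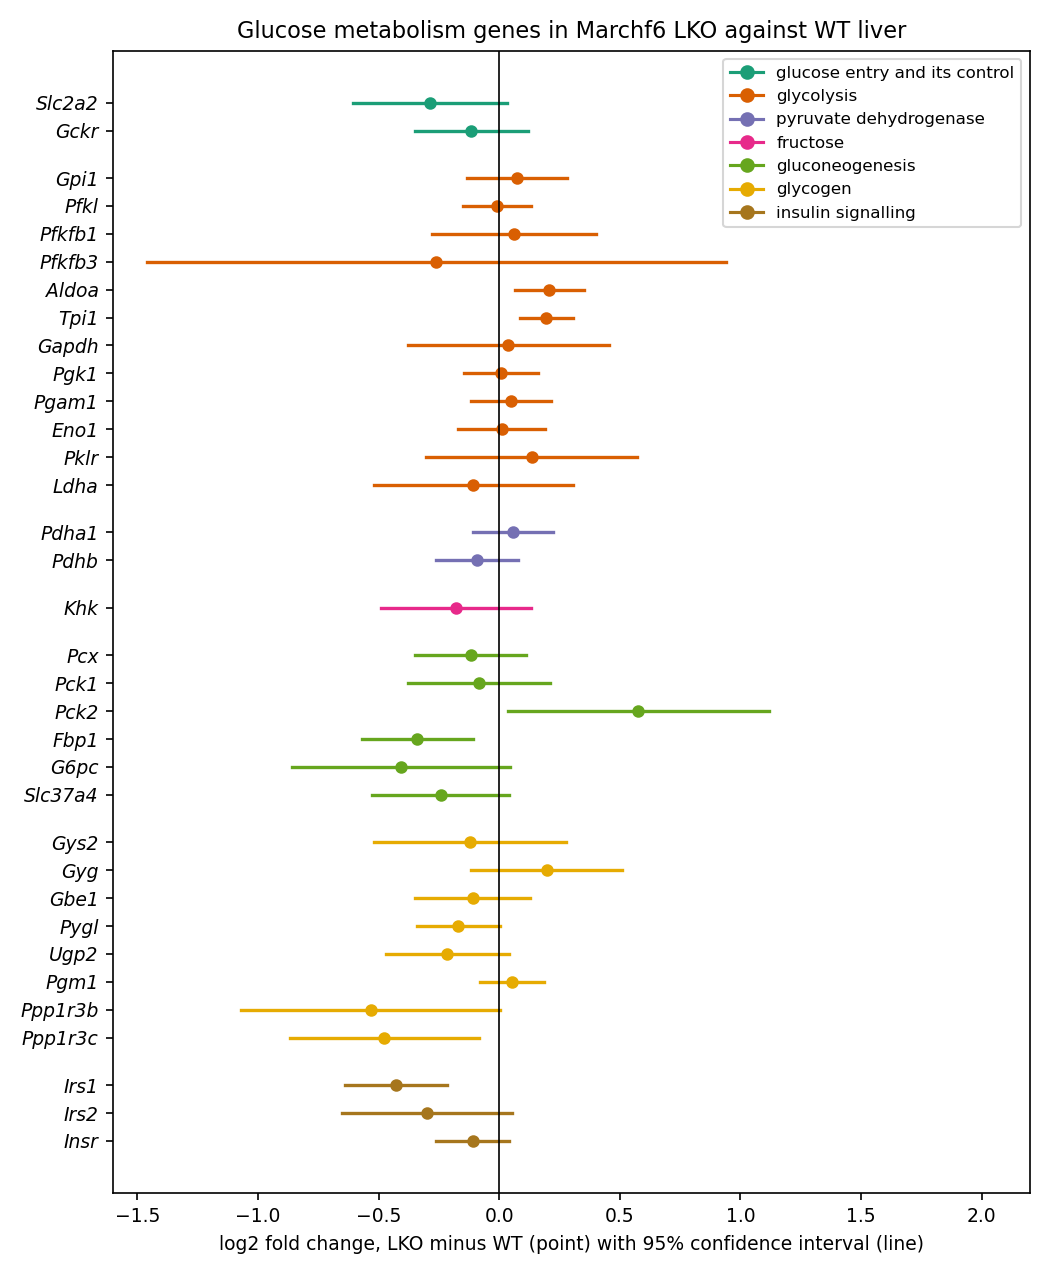
Log2 fold change of LKO against WT livers for each gene (point) with its 95% confidence interval from edgeR (line), coloured by pathway step. Intervals that leave out 0 belong to *Aldoa*, *Tpi1* and *Pck2* on the higher side and to *Fbp1*, *Ppp1r3c* and *Irs1* on the lower side, and *Pfkfb3* has the widest interval, from −1.46 to 0.94.

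Glucose enters and leaves the hepatocyte through the transporter GLUT2, encoded by *Slc2a2*. Its normalized CPM had a lowest, median and highest value of 383, 474 and 654 in WT and of 313, 417 and 488 in LKO livers. All 6 LKO livers lay below the WT mean, but the ranges overlapped, and the log2 fold change was −0.29 (SE 0.15, unadjusted p = 0.0734, adjusted p = 0.483). Over the alternatives the unadjusted p ran from 0.00222, with the replicate number as a block, to 0.235, when scaled to the hepatocyte markers. The adjusted p ran from 0.117 to 0.631. *Gckr*, a regulatory protein of glucose phosphorylation, ran from 226 (median 280) to 337 CPM in WT and from 193 (median 268) to 285 CPM in LKO livers. Its log2 fold change was −0.12 (SE 0.11, adjusted p = 0.733).

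Of the 12 glycolysis genes, 9 had a log2 fold change above 0 and 3 below, with a median of 0.04 that ran from −0.01 to 0.15 over the alternatives. The clearest difference was in *Tpi1* (ENSMUSG00000023456, chr6:124810586-124814296), triosephosphate isomerase, which interconverts the 3-carbon products of aldolase. Its CPM were 206, 214 and 222 (lowest, median, highest) in WT and 230, 245 and 257 in LKO livers. Every LKO liver lay above every WT liver. The log2 fold change was 0.19 (SE 0.051), a 1.15-fold difference with a 95% interval from 1.06 to 1.24, with an unadjusted p of 0.0018 and an adjusted p of 0.124. Over the alternatives the adjusted p ran from 0.000863 to 0.259. Within a genotype this gene hardly varied, with a coefficient of variation of 2.65% in WT and 4.07% in LKO livers.

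*Aldoa* (ENSMUSG00000030695, chr7:126795234-126800751) encodes the aldolase of muscle and many other tissues. Its CPM ran from 79.1 (median 86.1) to 89.3 in WT and from 84.9 (median 99.9) to 113 in LKO livers. In LKO livers, 5 of 6 exceeded every WT liver. The log2 fold change was 0.21 (SE 0.068, unadjusted p = 0.00775, adjusted p = 0.226).

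The other steps of glycolysis showed smaller differences. *Pfkl*, the liver phosphofructokinase, had values of 26.1, 32.7 and 33.3 CPM in WT and 30.3, 31.2 and 32.7 CPM in LKO livers and a log2 fold change of −0.01 (SE 0.065). The sign of this value changed with the scaling, and its 95% interval ran from −0.15 to 0.13. *Pfkfb1*, the liver form of the bifunctional enzyme that sets fructose 2,6-bisphosphate, the main allosteric switch between glycolysis and gluconeogenesis, ran from 55.1 (median 67.1) to 124 CPM in WT and from 71.2 (median 77.2) to 96.3 CPM in LKO livers. Its log2 fold change was 0.06 (SE 0.16). *Pklr*, the liver pyruvate kinase, ran from 216 (median 287) to 526 CPM in WT and from 219 (median 363) to 453 CPM in LKO livers, with a log2 fold change of 0.13 (SE 0.20, adjusted p = 0.856). The LKO range of *Pklr* lay inside the WT range.

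*Pfkfb3*, another form of the bifunctional enzyme, varied most between livers of 1 genotype. WT replicates 2 and 3 had 79.5 and 102 CPM while the other 4 WT livers had 8.81 to 19.2 CPM, and LKO replicate 2 had 76.7 CPM while the other 5 had 14.5 to 39.1 CPM. The coefficient of variation was 98.1% in WT livers, and the log2 fold change of −0.26 (SE 0.56) changed sign when WT replicate 2 or WT replicate 3 was left out. The fold changes of the remaining glycolysis genes lay between −0.11 (*Ldha*, lactate dehydrogenase) and 0.07 (*Gpi1*, glucose phosphate isomerase), and in between were *Gapdh*, *Pgk1*, *Pgam1* and *Eno1*, the enzymes of the lower chain.

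Beyond glycolysis proper, *Pdha1* and *Pdhb*, the 2 subunits of the pyruvate dehydrogenase that feeds pyruvate to the mitochondrial acetyl-CoA pool, had log2 fold changes of 0.06 (SE 0.078) and −0.09 (SE 0.080). *Khk*, ketohexokinase, which phosphorylates fructose, ranged from 243 to 528 CPM in WT and from 264 to 336 CPM in LKO livers, with a log2 fold change of −0.18 (SE 0.15). The high end of the WT range was a single liver, WT replicate 3, without which the log2 fold change was −0.0084.

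Of 32 other genes of glycolysis and pyruvate handling, 23 were higher and 9 lower, and none passed the adjusted threshold. At an unadjusted p under 0.05, 4 were higher and 1 was lower, where 6.33% and 5.36% of all genes tested were. *Dlat*, the acetyltransferase subunit of the pyruvate dehydrogenase complex, ran from 56.0 (median 62.2) to 82.5 CPM in WT and from 73.9 (median 90.8) to 94.3 CPM in LKO livers. Its log2 fold change was 0.46 (SE 0.099, unadjusted p = 0.000377, adjusted p = 0.0661), while the other subunits listed above differed by less than 0.1. *Eno3*, the muscle enolase, had a log2 fold change of 0.48 (SE 0.16, adjusted p = 0.233) at 2.35 to 5.90 CPM. *Pdk4*, a kinase that switches pyruvate dehydrogenase off in fasting, had 1.06 (SE 0.38, adjusted p = 0.279), with 2.25 to 6.15 CPM in WT and 4.49 to 25.0 CPM in LKO livers. *Tkfc*, the triokinase that follows ketohexokinase in fructose breakdown, had 404 to 652 CPM in WT and 348 to 417 CPM in LKO livers, and its log2 fold change was −0.43 (SE 0.11, unadjusted p = 0.00116, adjusted p = 0.103).

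The isozyme make-up, taken as shares of CPM per kb within an enzyme family, was liver-like in both genotypes. *Pklr* made up 98.9% ± 0.36 of pyruvate kinase transcripts in WT and 98.6% ± 0.75 in LKO livers (SD, n = 6), *Gys2* 98.9% and 98.8% of glycogen synthase, and *Pygl* 99.0% and 98.6% of glycogen phosphorylase. Phosphofructokinase was mixed. *Pfkl* made up 49.5% ± 4.74 of it in WT and 43.8% ± 3.97 in LKO livers (SD, n = 6), and *Pfkm*, the muscle form, 48.8% ± 5.12 and 54.3% ± 4.17. These ranges overlapped, from 39.5% to 54.8% for *Pfkm* in WT and from 46.4% to 58.2% in LKO livers. The shares were computed after the fold changes were known and were not tested.

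Of the 6 gluconeogenesis genes, 5 had a log2 fold change below 0 and 1 above, with a median of −0.18 that ran from −0.23 to −0.08 over the alternatives. *Pcx*, pyruvate carboxylase, which makes oxaloacetate from pyruvate, ran from 520 (median 617) to 829 CPM in WT and from 514 (median 589) to 680 CPM in LKO livers, with a log2 fold change of −0.12 (SE 0.11, adjusted p = 0.721). *Pck1* (ENSMUSG00000027513) ran from 3445 (median 4877) to 5547 CPM in WT and from 3515 (median 4310) to 5626 CPM in LKO livers. The ranges nearly coincided. Its log2 fold change was −0.08 (SE 0.14, adjusted p = 0.869), with a 95% interval of the fold from 0.769 to 1.16.

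*Fbp1* (ENSMUSG00000069805, chr13:62864753-62888282) had a lowest, median and highest value of 793, 817 and 994 CPM in WT and of 479, 715 and 776 CPM in LKO livers. Every LKO liver lay below every WT liver, and LKO replicate 1 was lowest. The log2 fold change was −0.34 (SE 0.11), a 0.791-fold level with a 95% interval from 0.675 to 0.927, an unadjusted p of 0.00657 and an adjusted p of 0.215. Over the alternatives the fold change ran from −0.38 to −0.24 and the adjusted p from 0.0848 to 0.301. Of the markers of periportal hepatocytes, the zone in which gluconeogenesis is strongest, 7 of 10 were lower and 3 higher, with a median of −0.14 and sums of 6865 to 8264 CPM in WT and 4673 to 8056 CPM in LKO livers. Among them *Cyp2f2*, a cytochrome P450 of that zone, had the lowest value, −0.41 (SE 0.11, adjusted p = 0.124). The highest was 0.16, and no marker of the list was at 0. Of the markers of hepatocytes of the other, pericentral zone, 6 of 10 were lower and 4 higher, with a median of −0.01 and values from −0.38 to 0.13. At an unadjusted p under 0.05, 1 periportal and 2 pericentral markers were lower, where 5.36% of all genes tested were. The part of these markers in the *Fbp1* value was not tested.

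*G6pc*, the last step of glucose release, ran from 319 (median 688) to 950 CPM in WT and from 424 (median 471) to 679 CPM in LKO livers. The lowest of all 12 livers was a WT liver, replicate 4. The log2 fold change was −0.41 (SE 0.21, unadjusted p = 0.0732, adjusted p = 0.483), and the unadjusted p ran from 0.00386 without WT replicate 4 to 0.195 without WT replicate 1. *Slc37a4*, the transporter that brings glucose 6-phosphate to this enzyme in the endoplasmic reticulum, had 193 to 302 CPM in WT and 147 to 253 CPM in LKO livers and −0.24 (SE 0.13, adjusted p = 0.505).

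*Pck2* was the member with the largest log2 fold change upwards, 0.58 (SE 0.25, unadjusted p = 0.0378, adjusted p = 0.387), at 30 to 70 reads per liver in WT and 44 to 155 reads in LKO livers. Its CPM ran from 2.07 (median 2.97) to 4.50 in WT and from 2.56 (median 4.04) to 6.66 in LKO livers. LKO replicates 5 and 6 lay above all WT livers, at 6.66 and 6.54 CPM, and the other 4 lay within the WT range. Its unadjusted p ran from 0.00992 to 0.112 over the alternatives, and it was 0.112 without LKO replicate 5.

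Of 21 other genes of gluconeogenesis and substrate entry, 19 were tested, 10 were higher and 9 lower, the median was 0.01, and none had an unadjusted p under 0.05. Among them were the amino acid enzymes *Tat* (log2 fold change −0.17, SE 0.29), *Sds* (0.12, SE 0.18) and *Gpt* (−0.21, SE 0.11), each with overlapping groups.

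**Figure D3:**
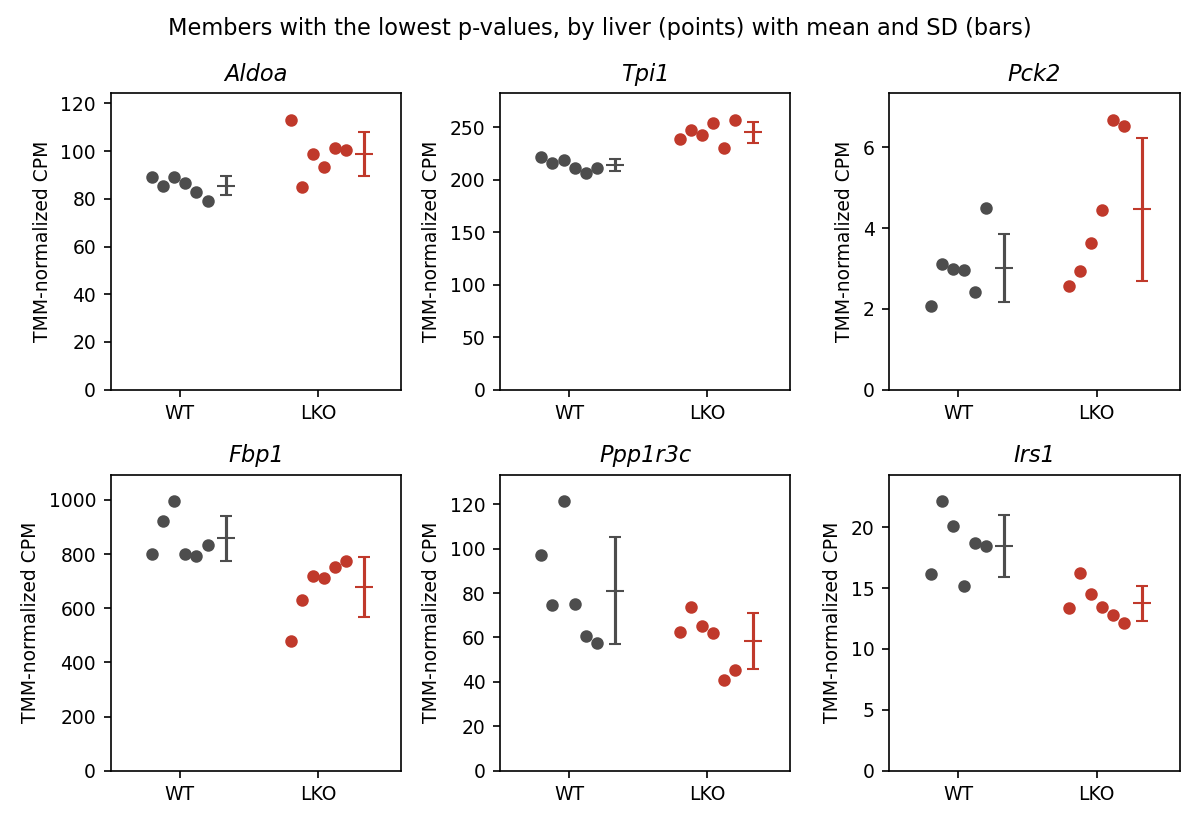
Normalized CPM in each WT and LKO liver (points) with the mean and SD of the 6 livers of a group (bars) for the 6 members with an unadjusted p under 0.05. *Tpi1* is higher in every LKO liver (230 to 257 CPM) than in any WT liver (206 to 222 CPM), *Fbp1* is lower in every LKO liver, and the groups of the other 4 genes overlap.

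Of the 8 glycogen genes, 6 had a log2 fold change below 0 and 2 above, with a median of −0.15 that ran from −0.18 to −0.05 over the alternatives. *Gys2*, the liver glycogen synthase, had values of 163, 239 and 293 CPM (lowest, median, highest) in WT and 116, 235 and 248 CPM in LKO livers, with a log2 fold change of −0.12 (SE 0.19, adjusted p = 0.857). *Pygl*, the liver phosphorylase that breaks glycogen down, ran from 562 (median 647) to 756 CPM in WT and from 491 (median 586) to 619 CPM in LKO livers. All 6 LKO livers lay below the WT mean, and the log2 fold change was −0.17 (SE 0.080, unadjusted p = 0.0519, adjusted p = 0.431).

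The largest differences were in 2 glycogen-targeting subunits of protein phosphatase 1, which bring the phosphatase to glycogen and so favour glycogen synthesis. *Ppp1r3c* (ENSMUSG00000067279, chr19:36731731-36736653) ran from 57.6 (median 74.7) to 121 CPM in WT and from 41.0 (median 62.1) to 74.0 CPM in LKO livers. LKO replicates 5 and 6 lay below all WT livers. The log2 fold change was −0.48 (SE 0.18), a 0.719-fold level with a 95% interval from 0.548 to 0.943, with an unadjusted p of 0.0206 and an adjusted p of 0.319, and without WT replicate 3 the unadjusted p was 0.0612. *Ppp1r3b*, the liver-enriched subunit, ran from 180 (median 357) to 512 CPM in WT and from 133 (median 234) to 405 CPM in LKO livers, with a log2 fold change of −0.53 (SE 0.25, unadjusted p = 0.0522, adjusted p = 0.431). In LKO livers, 5 of 6 were below the WT mean. The remaining glycogen members were *Ugp2* (−0.21), which makes UDP-glucose, the branching enzyme *Gbe1* (−0.11), phosphoglucomutase *Pgm1* (0.05) and glycogenin *Gyg* (0.20), the primer of glycogen chains, each with an adjusted p above that of *Pygl*.

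Of 24 other glycogen genes, 23 were tested, 12 were higher and 11 lower, and the median was 0.00 on the log2 scale. At an unadjusted p under 0.05, 3 were higher, where 6.33% of all genes tested were, and none was lower. *Gaa*, the lysosomal acid glucosidase, did not overlap between genotypes, with 99.9 to 111 CPM in WT and 114 to 135 CPM in LKO livers (log2 fold change 0.22, SE 0.057, adjusted p = 0.124). Non-overlap with LKO livers higher was found for 1 gene of this list and for 0.748% of all genes tested. *Ppp1r3g*, a targeting subunit known to respond to feeding, had 0.19 to 1.33 CPM in WT and 0.43 to 2.16 CPM in LKO livers (1.57, SE 0.46, adjusted p = 0.172), and *Pygb*, the brain phosphorylase, had 0.44 (SE 0.18, adjusted p = 0.338). *Ppp1r3g* differed in the opposite direction to *Ppp1r3b* and *Ppp1r3c*, at a far lower level.

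The 3 insulin signalling genes all had a log2 fold change below 0, with a median of −0.30 that ran from −0.37 to −0.18 over the alternatives, −0.18 being without WT replicate 1. *Irs1* (ENSMUSG00000055980, chr1:82233101-82291416), the insulin receptor substrate that links the receptor to phosphoinositide 3-kinase, ran from 15.1 (median 18.6) to 22.1 CPM in WT and from 12.2 (median 13.4) to 16.2 CPM in LKO livers. In LKO livers, 5 of 6 lay below every WT liver, and LKO replicate 2 overlapped. The log2 fold change was −0.43 (SE 0.098), a 0.744-fold level with a 95% interval from 0.643 to 0.86, an unadjusted p of 0.00061 and an adjusted p of 0.0797, the lowest of the members, on 225 to 376 reads per liver in WT and 225 to 298 in LKO livers. Over the alternatives the fold change ran from −0.48 to −0.33 and the adjusted p from 0.00638 to 0.165.

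*Irs2*, the second substrate, whose transcription rises in fasting, ran from 23.7 (median 32.1) to 48.2 CPM in WT and from 19.0 (median 29.7) to 33.9 CPM in LKO livers, with a log2 fold change of −0.30 (SE 0.17, adjusted p = 0.509). *Insr*, the insulin receptor, had 195, 217 and 229 CPM in WT and 166, 204 and 218 CPM in LKO livers and −0.11 (SE 0.071, adjusted p = 0.584). Of 44 hormone signalling genes and transcription factors of glucose metabolism, 42 were tested, of which 30 were lower and 12 higher, with a median of −0.06, and none passed the adjusted threshold. At an unadjusted p under 0.05, *Pde4d*, a cyclic AMP phosphodiesterase, had 0.65 (SE 0.25, adjusted p = 0.324), and *Sik1*, a kinase that restrains the cyclic AMP response, had −0.53 (SE 0.24, adjusted p = 0.392). These were 1 gene higher and 1 lower, where 6.33% and 5.36% of all genes tested were.

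Lists of responsive genes gave few differences. Of 18 fasting and insulin responsive genes, 14 were lower and 4 higher, with a median of −0.14. Besides *Pdk4* only *Creb3l3*, a fasting-induced factor of the endoplasmic reticulum, had an unadjusted p under 0.05 (−0.16, SE 0.067, adjusted p = 0.368). These were 1 gene higher and 1 lower, near the 6.33% and 5.36% of all genes tested. Of 14 targets of the carbohydrate response element-binding protein (ChREBP), the glucose sensor that drives *Pklr*, 6 were higher and 8 lower, with a median of −0.03. *Pnpla3*, a lipase of lipid droplets that is a target of lipogenic factors too, rose, from 0.386 to 2.67 CPM in WT to 2.71 to 7.90 CPM in LKO livers (log2 fold change 2.06, SE 0.41, adjusted p = 0.0388). It was the 1 gene of this list with an adjusted p under 0.05, where 0.428% of all genes tested had one. At an unadjusted p under 0.05, *Pnpla3* was the 1 gene higher, where 6.33% of all genes tested were. *Tkfc*, given above with the fructose genes, was the 1 gene lower, where 5.36% were. The ChREBP gene itself, *Mlxipl*, had −0.05 (SE 0.081).

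The balance of opposed enzymes was given for each liver as the log2 ratio of their reads per exon length, a measure that does not depend on library scaling. The ratio was below 0 in every liver for *Pfkl* over *Fbp1* and *Pklr* over *Pck1*, with the glucose-releasing enzyme the more abundant per length, and near 0 on average for *Gys2* over *Pygl* (−0.17 in WT and −0.14 in LKO livers). Of 4 pairs, 3 are reported. They were set up after the values of their genes were seen. The ratios are therefore a description, and permutation p-values computed for them are not given. *Pfkl* over *Fbp1* was −6.74 ± 0.22 in WT and −6.39 ± 0.23 in LKO livers (SD, n = 6), a difference of 0.35. All 6 LKO livers lay above the WT mean, although the ranges overlapped slightly (−7.12 to −6.56 in WT and −6.58 to −5.95 in LKO livers). The difference ran from 0.26 to 0.39 with each liver left out. The log2 fold changes behind it were −0.34 for *Fbp1* and −0.01 for *Pfkl*. The ratio leaves out *Pfkm*, which made up 48.8% of phosphofructokinase transcripts per kb in WT and 54.3% in LKO livers. The difference was 0.25 for *Pklr* over *Pck1* with widely overlapping ranges and 0.03 for *Gys2* over *Pygl*.

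**Figure D4:**
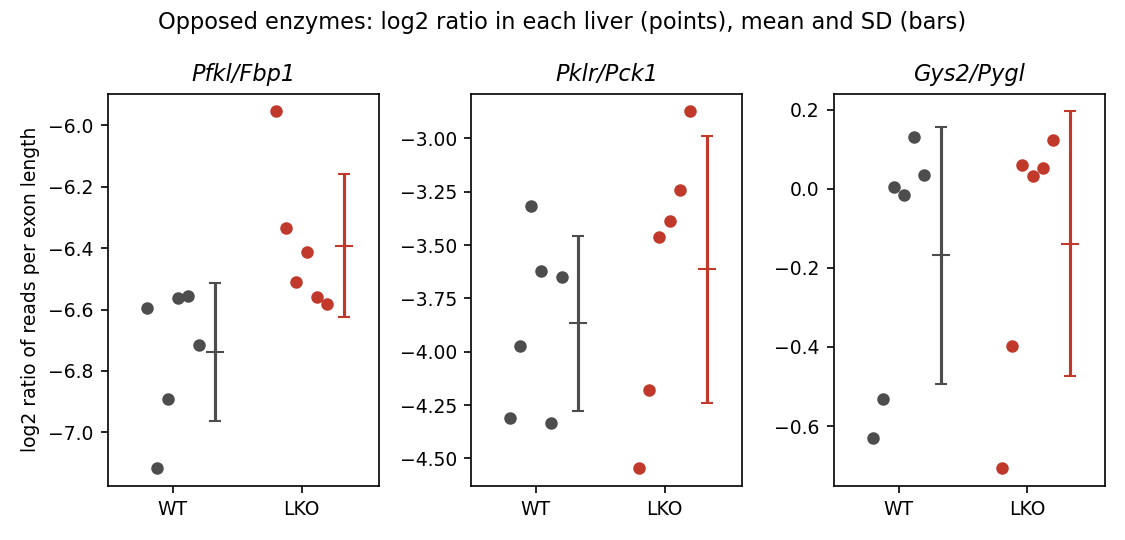
Log2 ratio of reads per exon length for 3 pairs of opposed enzymes in each liver (points), with the mean and SD of the 6 livers of a group (bars). In the *Pfkl*/*Fbp1* panel the LKO livers, from −6.58 to −5.95, lie above nearly all WT livers, while the genotypes overlap widely in the other 2 panels.

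*Pck1* ran from 3445 to 5547 CPM in WT and from 3515 to 5626 CPM in LKO livers. Because *Pck1* is driven by glucagon and restrained by insulin, it was set beside 6 genes within each genotype on the log2 CPM scale, giving 12 relations. All were chosen after the values were seen, rest on 6 livers each and share the scaling of a library. The relations are therefore a description, and permutation p-values computed for them are not given. *Igfbp1*, an insulin-repressed secreted protein, had r = 0.963 (rho = 0.943) over the 6 WT livers and r = 0.937 (rho = 0.886) over the 6 LKO livers. Without the 2 livers farthest from the *Pck1* median, r was 0.98 and 0.832.

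*Ppp1r3b* had r = 0.941 (rho = 0.829) in WT and r = 0.898 (rho = 0.886) in LKO livers. Without the 2 farthest livers r fell to 0.596 in WT and was 0.781 in LKO livers, so the WT value rests in part on WT replicates 3 and 6. *Ppp1r3c* had r = 0.78 (rho = 0.714) and r = 0.873 (rho = 0.886), and without the 2 farthest livers 0.513 and 0.974. *G6pc* had r = 0.563 (rho = 0.657) in WT and r = −0.255 (rho = −0.143) in LKO livers, and without the 2 farthest livers 0.96 and −0.591. For *Irs2* r was −0.163 and −0.595 (rho = −0.543 and −0.486), and for *Pklr* it was 0.454 and −0.812 (rho = 0.371 and −0.771). The LKO livers stood in 3 pairs of like *Pck1* level, so that r rests on few levels. These pairs were consecutive replicates. *Pck1* was 5421 and 5626 CPM in LKO replicates 1 and 2, and 4335 and 4285 CPM in replicates 3 and 4. It was 3557 and 3515 CPM in LKO replicates 5 and 6. In WT livers, replicates 1 to 3 had 5146 to 5547 CPM, and replicate 6 was lowest at 3445 CPM. *Pck1* level and replicate order thus cannot be told apart in LKO livers. The part of replicate order in these relations was not tested, nor was the difference in r between genotypes.

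**Figure D5:**
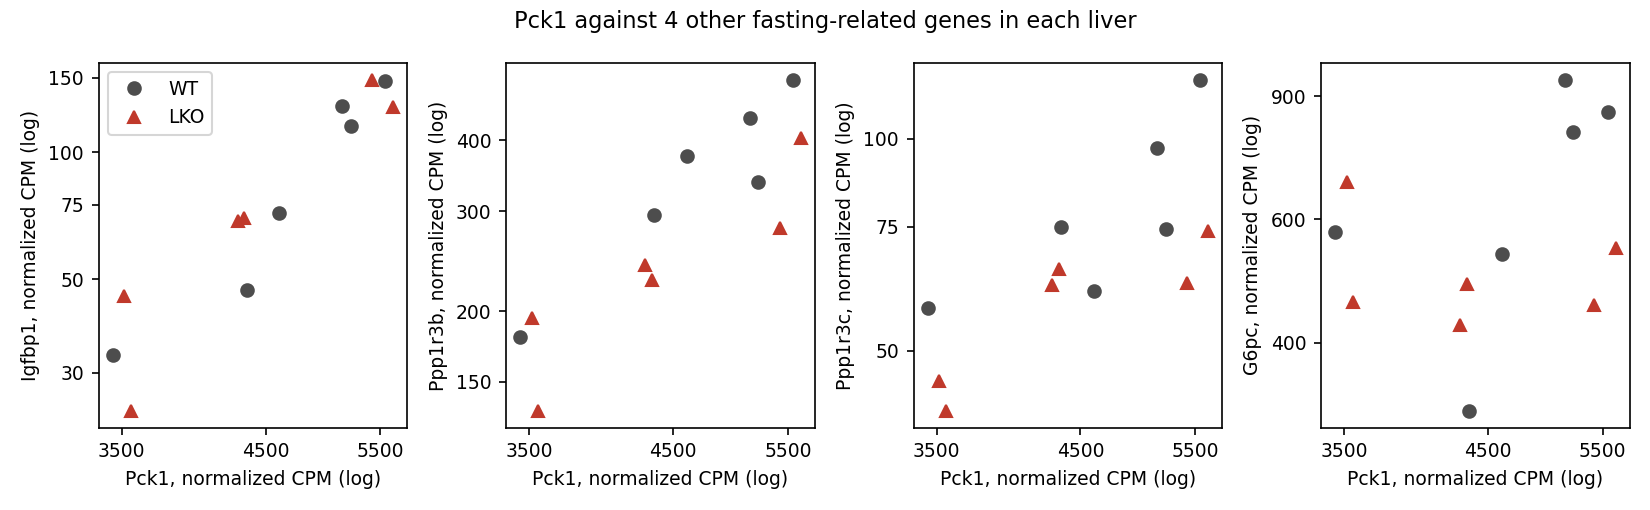
Normalized CPM of *Igfbp1*, *Ppp1r3b*, *Ppp1r3c* and *G6pc* against that of *Pck1* (log axes), with 1 point per liver for WT (circles) and LKO (triangles). *Igfbp1* and *Ppp1r3b* climb with *Pck1* in both genotypes (r = 0.963 and 0.937, and 0.941 and 0.898), whereas *G6pc* scatters.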

How the data were processed

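By the submitters' processing notes and the methods, the authors prepared mRNA libraries with the KAPA mRNA HyperPrep kit for a HiSeq4000, and used FastQC 0.11.15 for quality control, Trimmomatic 0.36 for trimming, HISAT2 2.1.0 for alignment to GRCm38.p6 and HTSeq 0.6.1 for counting per Ensembl gene. Raw counts were deposited, without normalization or filter. No pair of libraries was alike enough to be a duplicate. GENCODE M21 supplied names, coordinates and exon lengths. Each library is a different mouse.

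A gene was tested if over 2 reads fell on it in 6 or more livers (17509 genes). CPM are counts per 10 to the power of 6 reads after TMM scaling. The main test was edgeR 4.0.16 (R 4.3.3), quasi-likelihood, TMM, genotype alone, with p-values adjusted by Benjamini-Hochberg across the whole table and a threshold of 0.05. Depth covers counting error only, since reads carried no molecular identifiers. Alternatives were other scalings and filters, limma voom 3.58.1, DESeq2 1.42.0, a block on the replicate number, and omission of each liver. The test was also run on counts simulated from the levels, depths and spread of these livers, and the outcome is not reported here. Promoter windows came from RefSeq (GRCm38.p6).

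The members and gene lists were chosen with earlier results of these data known. Named in full are members with an unadjusted p under 0.05 and the control-point genes *Slc2a2*, *Gckr*, *Pfkl*, *Pfkfb1*, *Pklr*, *Pcx*, *Pck1*, *Fbp1*, *G6pc*, *Gys2*, *Pygl*, *Ppp1r3b*, *Ppp1r3c*, *Irs1*, *Irs2* and *Insr*, and from each pathway list up to 4 genes with the smallest unadjusted p under 0.05. *Tat*, *Sds*, *Gpt*, *Mlxipl*, *Pfkm*, *Cyp2f2* and *Igfbp1* were named after their values were seen. Some genes of the lists, and 1 enzyme pair, are not reported here.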

Additional observations from a re-analysis of the deposited data

Results flagged for a closer look

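Among the 76 groups of 6 livers searched, the livers of each genotype for each of the 34 members and 4 ratios, 7 held a liver whose gap to its neighbour took more than 0.625 of the range of the group, where chance gives about 1 in 20, or 3.8. All 7 were of member genes. In WT livers, replicate 3 was highest for *Gpi1* (gap 0.637 of the range), *Pfkfb1* (0.664) and *Khk* (0.686), replicate 2 was lowest for *Pfkl* (0.692), and replicate 1 was highest for *Gapdh* (0.706). In LKO livers, replicate 1 was lowest for *Gckr* (0.761) and replicate 2 was lowest for *Eno1* (0.666). WT replicate 3 thus accounted for 3 of the 7, all in genes of fructose and glucose use.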

How the results depend on the processing

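Of 748 fold changes of members under the 22 alternatives, 29 in 10 members changed direction, none with an adjusted p under 0.05, and 24 members kept their direction under every alternative run. The fold change of *Pfkl* was 0.0076 with upper-quartile scaling, 0.0079 without a filter, 0.087 when scaled to the hepatocyte markers, and −0.059 to 0.0088 with 1 liver left out. That of *Pfkfb3* was 0.079 with limma voom and 0.12 with the replicate number as a block. Scaled to the hepatocyte markers, *Pdhb* was 0.010 and *Pck1* 0.022. With 1 liver left out in turn, the ranges that crossed 0 were −0.67 to 0.26 for *Pfkfb3*, −0.014 to 0.26 for *Pfkfb1*, −0.10 to 0.20 for *Gapdh*, −0.029 to 0.049 for *Pgk1*, −0.022 to 0.083 for *Eno1*, −0.23 to 0.052 for *Ldha* and −0.20 to 0.0020 for *Gys2*.
The number of genes past the threshold was 75, and it was 114 without a filter, 350 with DESeq2, 196 when scaled to the hepatocyte markers (173 of them higher) and 38 (without WT replicate 5) to 132 (without WT replicate 3) with 1 liver left out. The number of members past the threshold was 2 with DESeq2, 1 with the replicate block and 1 when scaled to the hepatocyte markers. At an unadjusted p under 0.05 there were 6 members, 11 with the replicate block, and 5 to 11 with 1 liver left out, 11 being without WT replicate 6. The cause of these differences was not tested.
Same-numbered livers correlated between −0.13 and 0.23 in their deviations from the group means. The best-matching LKO replicates of WT replicates 1 to 6 were 2, 1, 4, 4, 3 and 5. Thus 1 of 6 matched its own number, while WT replicates 1 and 2 matched LKO replicates 2 and 1. The labels give no litter or batch for a number, so the main test does not pair the mice. A structure shared by position in the 2 series is therefore not modelled in the main test. With the replicate number as a block, 97 genes passed, among them *Irs1* (adjusted p = 0.0446). Read depth limits *Pck2* (30 to 155 reads per liver) most among the members, and copies limit *Gapdh*, *Pgk1*, *Pgam1* and *Eno1*. Shared sequence covers a smaller part of other members, among them *Gpi1*, *Ldha* and *Aldoa*. Of the 4 ratios of opposed enzymes, only *Gys2* over *Pygl* changed direction with 1 liver left out (−0.064 to 0.14).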

Other observations

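Glycogen synthase transcripts split the livers within each genotype. *Gys2* stood at 163 and 170 CPM in WT replicates 1 and 2 against 222 to 293 CPM in the other 4 WT livers, and at 116 and 171 CPM in LKO replicates 1 and 2 against 227 to 248 CPM in the other 4 LKO livers. The log2 ratio of *Gys2* to *Pygl* reads per exon length was −0.63, −0.53, −0.71 and −0.40 in these 4 livers and between −0.02 and 0.13 in the remaining 8. *Ldha* was high in the same 4, at 689 and 935 CPM in WT and 791 and 663 CPM in LKO livers, and WT replicate 6 was also high, at 679 CPM. This was seen after the values were examined and was not tested.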
